A study of Mus musculus with 12 samples.

Results

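A set of 9 genes for extracellular proteases and their inhibitors was followed across 12 mouse hippocampal slice libraries. The genes were chosen by name and with earlier results of these data known, 9 of the 41091 gene IDs in each count table. The plasminogen activators were Plat and Plau, with the receptor Plaur and the inhibitor Serpini1. The metalloproteases were Mmp9, Adamts1 and Adamts4, and their inhibitors were Timp1 and Timp3. Total RNA came from acute hippocampal slices of wild-type male C57BL/6 mice aged 2 to 3 months, with the dentate gyrus cut away and a recovery of 2 hr before treatment. In the 1 hr LTP and 3 hr LTP groups, chemical long-term potentiation (LTP) was set off by 5 min of 50 uM forskolin, which activates adenylyl cyclase, and then by forskolin plus 30 mM KCl and 10 mM calcium until 10 min. The 1 hr control and 3 hr control groups received 0.2% DMSO for 10 min, and slices were frozen either 1 hr or 3 hr later. Each group had 3 libraries, and at each time point every animal gave both LTP and control slices. These are slices that had been cut, trimmed and kept in a chamber, so no group represents undisturbed hippocampus. The study made libraries from samples whose RNA passed a qPCR check on Arc, the short and long forms of Homer1, and Hprt.

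Tissue plasminogen activator (from Plat) and urokinase (from Plau) are serine proteases that convert plasminogen to plasmin. Urokinase is held at the cell surface by its receptor Plaur, and neuroserpin (from Serpini1) is a neuronal inhibitor of tissue plasminogen activator. Mmp9 and the ADAMTS proteases cut extracellular matrix, the ADAMTS members being known for cleaving the aggrecan family of proteoglycans in perineuronal nets, and TIMPs block metalloproteases. Tissue plasminogen activator and Mmp9 are both known for roles in late hippocampal LTP.

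Library totals ran from 37118382 to 50815001 counts, and levels are given in CPM, that is counts scaled to library size with TMM factors. A floor of 3 counts corresponded to 0.0584 to 0.0792 CPM, which covers counting error only. 1 hr control replicate 2 was set aside from the tests because the study treated it as an outlier of clustering. On the first principal component (44.6% of variance) it lay at -8.09, above the 5 other 1 hr libraries (-37.7 to -24.4) and below all 6 libraries of 3 hr (12.6 to 40.3), and its values for the 9 genes are given beside the others. Arc, Homer1 and Hprt had been used to choose the samples, so their values are a description and no check of induction. Arc and Fos, both immediate early genes, differed by 1.99 and 1.97 on the log2 scale at 1 hr and by 1.30 and 1.48 at 3 hr. The synaptic scaffold gene Homer1 differed by 0.41 and 0.80, and Hprt, a housekeeping gene, had log2 differences of -0.08 and -0.21. Slc17a7, a marker of excitatory neurons, had between 527 and 910.3 CPM in the 11 fitted libraries. The summed dentate granule markers Prox1, Dsp, C1ql2 and Tdo2 still had 120.0 to 221 CPM although the dentate gyrus was trimmed. The neutrophil markers S100a8, S100a9, Ly6g and Mpo summed to no more than 0.487 CPM, with Ly6g at 0 in the fitted libraries of the 1 hr control, 1 hr LTP and 3 hr control groups. A difference in a bulk sample can come from fewer cells of a type or from less RNA per cell, and these cannot be told apart here.

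On GRCm38 with the GENCODE M21 annotation, all 9 are protein-coding genes. Adamts1 (ENSMUSG00000022893.9) lies on the minus strand at chr16:85793827-85803113 and Adamts4 (ENSMUSG00000006403.7) on the plus strand at chr1:171250421-171260637. Plat (ENSMUSG00000031538.5) is at chr8:22757727-22782844, Plau (ENSMUSG00000021822.2) at chr14:20836660-20843385 and Plaur (ENSMUSG00000046223.9) at chr7:24462484-24475968, each on the plus strand. Also on the plus strand are Serpini1 (ENSMUSG00000027834.10) at chr3:75557547-75643495, Mmp9 (ENSMUSG00000017737.2) at chr2:164940780-164955850, Timp1 (ENSMUSG00000001131.6) at chrX:20870166-20874735 and Timp3 (ENSMUSG00000020044.8) at chr10:86300372-86349506. Values are 1 count per gene and do not separate exons. The study describes using reads over coding sequence for expression, and whether the deposited counts were restricted in this way was not settled here, since the tables also list non-coding genes. Timp3 shares 21.3% of its exonic bases (1733 bases) with Syn3 on the opposite strand. Whether the counting used strand was not stated, so the values of Timp3 carry that uncertainty.

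Promoter sequence from RefSeq (GRCm38.p6) was matched for 5 of the 9 genes, namely Plaur, Serpini1, Timp1, Timp3 and Adamts1. Plat, Plau, Mmp9 and Adamts4 had no entry. The 250 bases before the start site were searched on both strands for AP-1 (TGANTCA), CRE (TGACGTCA), the CRE core TGACG, which every CRE also contains, TATAAA and the CArG box. Of 32851 promoters with 250 bases, 6.75% held AP-1, 1.55% CRE, 17.8% the CRE core, 12.4% TATAAA and 1.47% a CArG box. Adamts1 is shown because it was the only one of the 9 called at both time points after LTP, and Plaur and Timp1 because their levels ran most closely together over the libraries. Capitals mark the matches, and each sequence reads 5′ to 3′ toward its start site.
Adamts1 promoter, chr16:85803114-85803363, minus strand: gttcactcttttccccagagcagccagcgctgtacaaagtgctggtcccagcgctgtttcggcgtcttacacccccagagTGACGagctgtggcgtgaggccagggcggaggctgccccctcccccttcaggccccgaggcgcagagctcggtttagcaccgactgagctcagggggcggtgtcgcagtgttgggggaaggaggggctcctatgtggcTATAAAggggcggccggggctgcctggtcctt
Plaur promoter, chr7:24462233-24462482, plus strand: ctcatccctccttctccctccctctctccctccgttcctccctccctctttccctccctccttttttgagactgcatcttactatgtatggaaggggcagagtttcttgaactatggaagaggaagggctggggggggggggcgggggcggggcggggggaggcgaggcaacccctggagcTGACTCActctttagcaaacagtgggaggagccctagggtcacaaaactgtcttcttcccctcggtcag
Timp1 promoter, chrX:20869916-20870165, plus strand: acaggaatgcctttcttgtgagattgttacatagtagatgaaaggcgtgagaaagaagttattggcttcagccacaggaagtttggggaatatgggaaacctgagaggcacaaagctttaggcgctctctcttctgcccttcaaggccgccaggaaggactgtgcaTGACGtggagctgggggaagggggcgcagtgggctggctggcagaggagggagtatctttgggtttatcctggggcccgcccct
In Adamts1 the CRE core began 170 bases before the start site and TATAAA 32 bases before it. In Plaur an AP-1 match began at 69 bases, and in Timp1 a CRE core began at 84 bases. Serpini1 and Timp3 held none of these letters in this window. A match is a description of sequence and not evidence of a bound site.

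The LTP comparisons asked which of these genes differed from time-matched control slices. Adamts1 rose at 1 hr and at 3 hr, Adamts4 rose at 3 hr, and none of the 9 fell by the test. A gene was called when its adjusted p was below 0.1 and its fold change above 1.2. At 1 hr 1 of 9 genes was called, against 0.789% of 17736 genes tested in either direction and 0.778% called higher. At 3 hr 2 of 9 were called, both higher, against 6.6% of 17508 genes tested and 5.07% called higher. Since the 9 were chosen with earlier results of these data known, these counts beside the shares are a description and no test of the set. The median log2 difference of the 9 was 0.19 at 1 hr and 0.08 at 3 hr, beside -0.00 over all genes tested in each. With the set-aside control included the 1 hr median was 0.05, and with a library left out it ran from 0.04 (without 1 hr control replicate 3) to 0.23, and at 3 hr from 0.03 to 0.23.

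**Figure D1:**
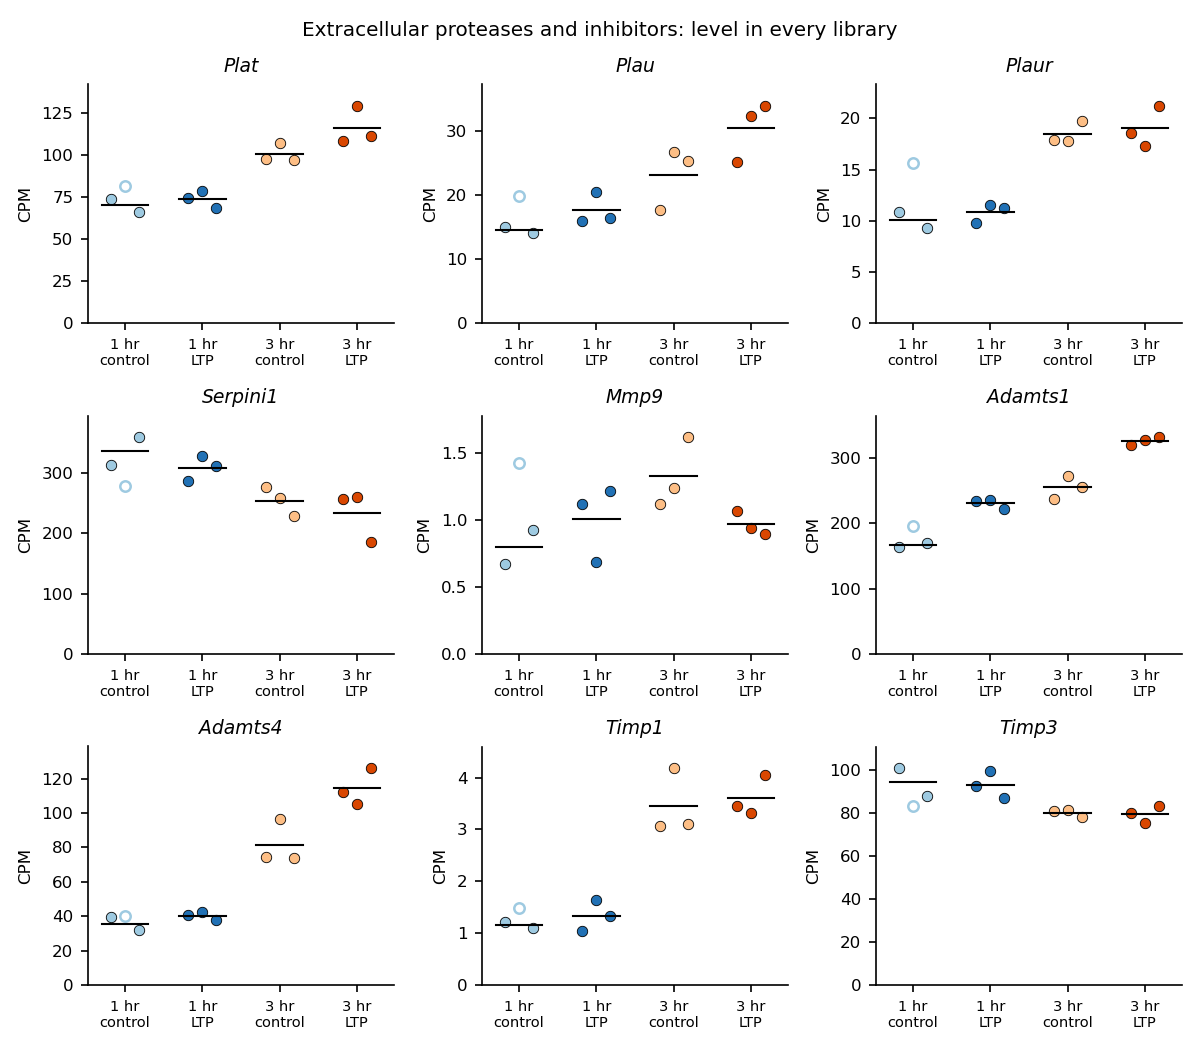
Level of each of the 9 genes in CPM (linear axis from 0) in every library of the 4 groups, with a horizontal line at the mean of the fitted libraries and an open circle for the set-aside 1 hr control replicate 2. Adamts1 in the 3 LTP libraries lies above the controls of its time point, at 222 to 236 CPM at 1 hr and at 319.5 to 332 CPM at 3 hr.

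Adamts1 had the clearest response of the 9. It stood at 164 and 169.5 CPM in 1 hr controls 1 and 3, at 196 CPM in the set-aside control and at 234, 236 and 222 CPM in the 1 hr LTP libraries. Every 1 hr LTP library was above all 3 controls. The log2 fold change was 0.48 (SE 0.0665), a fold of 1.39, and edgeR's quasi-likelihood test gave an adjusted p of 0.00168. At 3 hr the controls had 237, 273 and 256 CPM and the LTP libraries 319.5, 327 and 332 CPM. The groups again did not overlap, and the LTP libraries were close together (326 ± 6.45 CPM, SD, n = 3). The log2 fold change at 3 hr was 0.37 (SE 0.0654), and its adjusted p in edgeR was 0.023. Within animals the log2 ratio of LTP to control was 0.51, 0.27 and 0.39 at 1 hr and 0.43, 0.26 and 0.38 at 3 hr. All 6 pairs thus had more Adamts1 in the LTP slices, the 1 hr value of animal 2 using the set-aside control. The 1 hr call held in 15 of 15 alternative settings (edgeR, DESeq2 and limma adjusted p from 8.87e-09 to 0.0846). The 3 hr call was lost without 3 hr control replicate 1, where the log2 fold change was 0.32 with an adjusted p of 0.111 in edgeR.

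Adamts4, a protease of the same family, differed at 3 hr. The 3 hr controls had 74.6, 96.2 and 74 CPM and the 3 hr LTP libraries 112, 105 and 126 CPM. The lowest LTP library was above the highest control. The log2 fold change was 0.50 (SE 0.111), a fold of 1.42, for which edgeR gave an adjusted p of 0.046. The animals differed in size of response, with log2 ratios of 0.58, 0.13 and 0.77. The call was lost when 3 hr control replicate 1 (log2 0.44, edgeR adjusted p = 0.184), 3 hr control replicate 3 (0.44, 0.156) or 3 hr LTP replicate 1 (0.52, 0.146) was left out. At 1 hr Adamts4 had 39.5 and 31.7 CPM in controls 1 and 3, 40.1 CPM in the set-aside control and 40.5, 42.6 and 37.9 CPM after LTP. These groups overlapped, and the difference of 0.19 (SE 0.0983) had an adjusted p of 0.808 in edgeR. With a library left out the 1 hr difference ran from 0.04 to 0.35. Whether the LTP effect on Adamts4 changed between the time points was tested directly, and the difference of 0.32 (SE 0.164) had an adjusted p of 0.806 in edgeR. That difference ran from 0.12 to 0.44 with a library left out.

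Of the plasminogen activators, neither was called in the unpaired fits. Plau had 17.6, 26.6 and 25.2 CPM in the 3 hr controls and 25.1, 32.3 and 33.8 CPM in the 3 hr LTP libraries. The groups overlapped between animals, yet within each animal the LTP slices had more, with log2 ratios of 0.51, 0.28 and 0.42. The log2 fold change was 0.41 (SE 0.164, edgeR adjusted p = 0.211), and it ran from 0.24 to 0.52 with a library left out. With the animal as a block it was 0.42 (edgeR adjusted p = 0.0211), which passed the call. Plau is therefore called or not according to whether slices of an animal are paired. At 1 hr Plau had 15 and 14.1 CPM in the fitted controls, 19.8 CPM in the set-aside control and 15.9, 20.4 and 16.4 CPM after LTP. The fitted groups did not overlap but the set-aside control lay inside the LTP range, and the difference of 0.29 (SE 0.119) had an adjusted p of 0.667 in edgeR. Over the 15 alternatives the 1 hr difference ran from 0.12 to 0.35.

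Plat was the more abundant activator. Its level was 97.4, 107 and 97.1 CPM in the 3 hr controls and 108, 129 and 111 CPM in the 3 hr LTP libraries. The groups lay just apart, and all 3 animals had more in LTP slices (log2 ratios of 0.15, 0.28 and 0.19). The difference of 0.22 (SE 0.0795), a fold of 1.17, had an adjusted p of 0.159 in edgeR, and with the animal block an adjusted p of 0.0538 at a fold change under the minimum of 1.2. At 1 hr Plat had 73.9 and 66.1 CPM in the fitted controls, 81.8 CPM in the set-aside control and 74.3, 78.8 and 68.5 CPM after LTP. These overlapped, with a log2 difference of 0.09 (SE 0.0828) that ran from 0.01 to 0.17 over the 15 alternatives.

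The receptor and the serpin did not pass the test after LTP. Plaur had 10.9, 15.6 (set aside) and 9.29 CPM in the 1 hr controls and 9.82, 11.5 and 11.2 CPM in the 1 hr LTP libraries, and 17.9, 17.8 and 19.8 CPM in the 3 hr controls against 18.6, 17.3 and 21.2 CPM after LTP at 3 hr. LTP and control libraries overlapped at both times. At 1 hr the log2 difference was 0.11 (SE 0.124) and at 3 hr it was 0.05 (SE 0.0948), while the 1 hr value was -0.14 with the set-aside control included. Serpini1 had 313, 278 (set aside) and 359 CPM in the 1 hr controls, 286, 328 and 312 CPM in the 1 hr LTP libraries, 276, 258 and 228 CPM in the 3 hr controls and 256, 260.3 and 185 CPM in the 3 hr LTP libraries. LTP and control ranges overlapped at both times, and the lowest value of all 12 was 3 hr LTP replicate 3. The log2 differences were -0.11 (SE 0.0792) and -0.10 (SE 0.129).

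Mmp9, the gelatinase of the set, was measured from only 26 to 83 counts per library. It had 0.672 and 0.924 CPM in the fitted 1 hr controls, 1.43 CPM in the set-aside control and 1.12, 0.686 and 1.22 CPM in the 1 hr LTP libraries. The ranges overlapped, and the log2 difference of 0.35 (SE 0.342) fell to -0.00 with the set-aside control included. At 3 hr the controls had 1.12, 1.24 and 1.62 CPM and the LTP libraries 1.07, 0.945 and 0.897 CPM. Here every LTP library was below every control, with animal log2 ratios of -0.07, -0.36 and -0.78. The log2 difference of -0.44 (SE 0.201) had an adjusted p of 0.264 in the edgeR test, so it was not called. It ran from -0.55 to -0.26 with a library left out.

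Timp1 and Timp3, both metalloprotease inhibitors, did not pass the test after LTP. Timp1 had 1.21, 1.49 (set aside) and 1.09 CPM in the 1 hr controls, 1.04, 1.64 and 1.34 CPM in the 1 hr LTP libraries, 3.07, 4.18 and 3.1 CPM in the 3 hr controls and 3.45, 3.32 and 4.04 CPM in the 3 hr LTP libraries. Timp3 had 101, 83.5 (set aside) and 88 CPM, then 92.6, 99.9 and 87.3 CPM, then 81.1, 81.7 and 78.1 CPM, and then 80.1, 75.6 and 83.6 CPM in the same order of groups. LTP and control libraries overlapped for both genes at both times. The log2 differences were 0.23 (SE 0.287) and 0.08 (SE 0.156) for Timp1, and -0.01 (SE 0.083) and 0.00 (SE 0.0602) for Timp3. The standard errors of Timp1 were larger than those of Timp3, and it was measured from 43 to 192 counts per library.

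**Figure D2:**
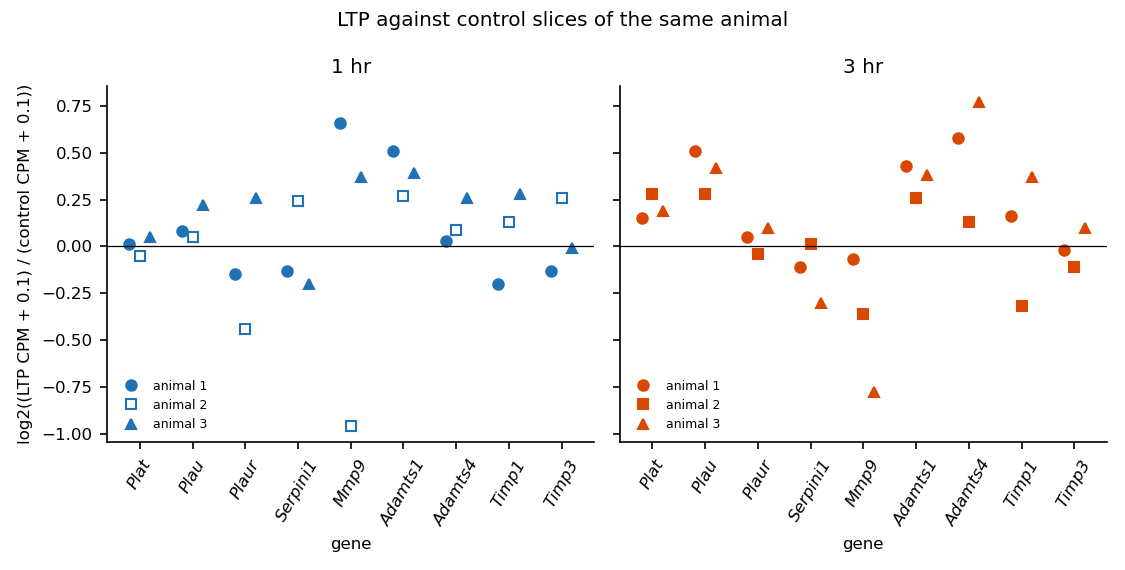
Log2 ratio of LTP to control CPM, each with a pseudocount of 0.1 CPM, for slices of the same animal at 1 hr and 3 hr, with 1 symbol per animal and open symbols where the set-aside control was used. Adamts1 lies above 0 in all 6 pairs, from 0.26 to 0.51, and Mmp9 at 3 hr lies below 0 in all 3.

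The difference between the 3 hr and 1 hr LTP effects was tested in the 4-group edgeR fit. None of the 9 genes was called (0 of 9), against 0.0592% of 18584 genes tested (11 genes, 7 with the animal as a block). None of the 9 had an unadjusted p under 0.05 in edgeR, while 1225 of all genes did, and DESeq2 and limma-voom also called 0 of the 9. The largest differences were -0.78 (SE 0.379) for Mmp9 and 0.32 for Adamts4, with unadjusted edgeR p of 0.0581 and 0.0713. For Adamts1 the difference was -0.10 (SE 0.0918). These tests do not show that the effects were the same at both times.

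Control slices of the 2 times were then set against each other, which shows what differed in the absence of LTP induction. Here all 9 genes were called, 7 higher and 2 lower at 3 hr, against 32.8% of 18584 genes tested, 16.1% called higher and 16.8% called lower. Given how the 9 were chosen, this count too is a description and no test of the set. The median log2 difference of the 9 was 0.64, beside -0.02 over all genes. Both activators, the receptor, all 3 metalloproteases and Timp1 were higher, and the inhibitors Serpini1 and Timp3 were lower. In the 20 alternatives 7 or 8 of the 9 were called. Time and animal cannot be told apart here, since LTP and control slices were paired only within a time point.

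The largest of these differences was that of Timp1, whose fitted 1 hr controls (1.09 and 1.21 CPM) lay far below the 3 hr controls (3.07 to 4.18 CPM). Its log2 fold change was 1.55 (SE 0.221), a fold of 2.93, and edgeR gave an adjusted p of 0.000292. Adamts4 differed by 1.17 (SE 0.127), a fold of 2.25, beside its LTP difference of 0.50 at 3 hr. Plaur differed by 0.84 (SE 0.118), Plau by 0.64 (SE 0.174), Adamts1 by 0.58 (SE 0.0695) and Plat by 0.49 (SE 0.0898). For each of these 6 genes the call held in 20 of 20 alternatives. All their 3 hr controls were above the fitted 1 hr controls, but how many of all genes separated in this way was not counted. For Plau the 3 hr control of animal 1 (17.6 CPM) was below the set-aside 1 hr control (19.8 CPM).

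The other 3 calls were less stable. Mmp9 differed by 0.70 (SE 0.283, edgeR adjusted p = 0.0742), and lost its call in 5 of 20 alternatives, among them the inclusion of the set-aside control (0.38, adjusted p of 0.328), and without 1 hr control replicate 1 (0.54, adjusted p of 0.3) or 3 hr control replicate 3 (0.55, adjusted p of 0.221). Serpini1 differed by -0.43 (SE 0.127, edgeR adjusted p = 0.0201) and lost its call without 1 hr control replicate 3 (-0.29, adjusted p of 0.24). Timp3 differed by -0.26 (SE 0.0784, edgeR adjusted p = 0.0209), just past the fold minimum, and lost its call in 18 of 20 alternatives, with values from -0.32 to -0.12.

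**Figure D3:**
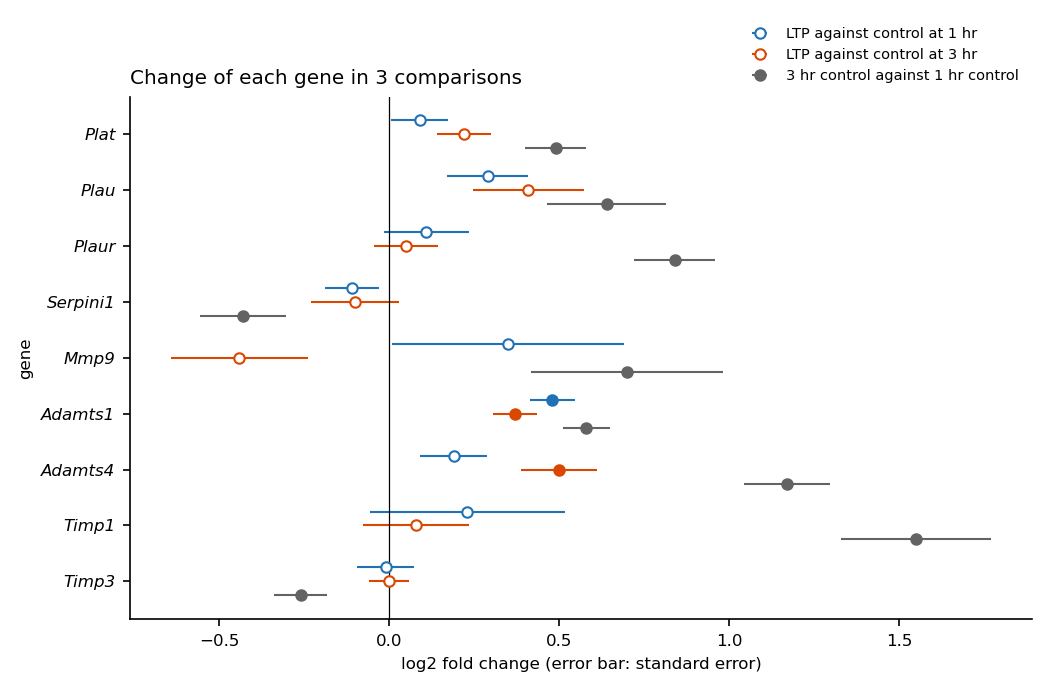
Log2 fold change of each of the 9 genes for LTP against control at 1 hr, at 3 hr and for 3 hr against 1 hr controls, with the standard error as a bar and filled points for genes called by edgeR. The control comparison holds the largest values, up to 1.55 for Timp1, while LTP differences lie between -0.44 and 0.50.

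Markers of several cell types moved with the control comparison, in which 16.1% of all tested genes were called higher and 16.8% lower. The summed level of 6 microglia markers was 250.4 to 266 CPM in the fitted 1 hr controls, 237 CPM in the set-aside control and 176 to 202 CPM in the 3 hr controls, with 5 of 6 called lower. The 5 mural cell markers summed to 159 to 160.2 CPM in the fitted 1 hr controls, 144 CPM in the set-aside control and 109 to 117 CPM in the 3 hr controls, with 4 of 5 called lower, and 3 of 5 endothelial markers were called lower. The 4 oligodendrocyte markers summed to 4228 to 5149.7 CPM in the fitted 1 hr controls, 4483 CPM in the set-aside control and 5788 to 7117 CPM in the 3 hr controls, with 2 of 4 called higher. Markers of CA1 or CA3 pyramidal neurons summed to 239 to 289 CPM in the fitted 1 hr controls, 282 CPM in the set-aside control and 341 to 392 CPM in the 3 hr controls, with Fibcd1 and Bok called higher and Iyd lower, 3 of 4 in all. Of the other neuronal and astrocyte markers, Slc32a1 was called higher, and Neurod6 (-1.10), Gad2, Tdo2 and Slc1a3 were called lower. Their part in the differences of the 9 genes was not tested. In the LTP comparisons 1 marker was called at 1 hr and 0 at 3 hr in edgeR, the 1 hr marker being the mural gene Myh11 (-0.68, SE 0.142). Of all genes tested, 1190 of 17736 at 1 hr and 3540 of 17508 at 3 hr had an unadjusted p under 0.05 in edgeR. The marker counts below stand beside these. The mural sum at 1 hr was 134 to 147 CPM after LTP, a range that holds the set-aside control. The endothelial sum was 79.3 to 84.8 CPM after LTP, against 94.4 to 101 CPM in the fitted controls and 92.7 CPM in the set-aside control. At 1 hr 3 of 5 endothelial markers (median log2 -0.24) and 3 of 5 mural markers (median -0.46) had an unadjusted p under 0.05 in edgeR. Every marker of both sets had a lower value after LTP than in the fitted controls. The 4 oligodendrocyte markers summed to 4987 to 6018 CPM after LTP at 1 hr, with 3 of 4 at an unadjusted p under 0.05 in edgeR, all with higher values. The 3 inhibitory neuron markers summed to 384 to 410.1 CPM after LTP at 1 hr, against 339 to 385 CPM in the fitted controls and 339 CPM in the set-aside control, with 2 of 3 at an unadjusted p under 0.05 in edgeR. At 3 hr their sum was 398 to 424 CPM after LTP and 359.8 to 394 CPM in the controls, which did not overlap, with 1 of 3 at an unadjusted p under 0.05 in edgeR. The part of these markers in the differences of Adamts1 and Adamts4 was not tested. The 4 fibroblast or meninges markers (Col1a1, Col1a2, Lum and Dcn) had lower values after LTP at both times, with 0 called and 2 of 4 at an unadjusted p under 0.05 in edgeR at each. Their sum was 17.5 to 32 CPM in the fitted 1 hr controls, 23.2 CPM in the set-aside control and 14.1 to 20.1 CPM after LTP, and at 3 hr it was 19.5 to 28.4 CPM in the controls and 12.6 to 22.2 CPM after LTP. The ranges of the sums overlapped at both times, and the median log2 difference of the 4 was -0.51 at 1 hr and -0.58 at 3 hr.

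Levels were ordered per kilobase of full exonic length, and if the counts cover coding sequence alone, genes with much non-coding exon are understated in this order. In the fitted 1 hr controls Serpini1 was highest (46.1 ± 4.51 CPM per kb, SD, n = 2), followed by Adamts1 at 31.5, Timp3 at 11.6 and Plat at 11.2, and then Adamts4 at 7.4, Plau at 6.14, Plaur at 3.86, Timp1 at 1.3 and Mmp9 at 0.225 CPM per kb. Over these 2 libraries only Timp3 and Plat overlapped among neighbours in that order, and with the set-aside control Adamts4 also overlapped Plau, and Plau overlapped Plaur. In the 1 hr LTP group Adamts1 (43.6 ± 1.49 CPM per kb, SD, n = 3) and Serpini1 (42.4 ± 2.94) overlapped. In the 3 hr controls Adamts1 was highest at 48.1 CPM per kb, above Serpini1 at 34.9. In the 3 hr LTP group Adamts1 reached 61.6 ± 1.22 CPM per kb (SD, n = 3), ahead of Serpini1 at 32.1, which overlapped Adamts4 at 23.8, and Mmp9 remained lowest at 0.274 CPM per kb.

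Across the 11 fitted libraries most of the 9 genes ran together. Pearson's r of log2 CPM was 0.97 for Plaur with Timp1, and 0.96 for Adamts4 both with Plat and with Timp1. Serpini1 ran opposite to Plaur (r = -0.86) and to Adamts4 (-0.84), and alongside Timp3 (0.58). Mmp9 was the least alike, with r from -0.68 to 0.40. The libraries share groups and time points, so these values describe the pattern and carry no test. Of 14191 other genes averaging 1 CPM or more, Csrnp1, Pim1 and Rnf122 were most like Adamts1 (r of 0.981, 0.975 and 0.975), and each was called higher after LTP at both times. Ddx39b, Tubb6 and Bcl2l11 were most like Adamts4 (0.985, 0.983 and 0.983), and none of them was called in either LTP comparison. The genes like Adamts1 and like Adamts4 were picked by correlation over these same libraries, so their calls are a description and carry no test.

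Other genes of the same pathways were taken from 5 lists, also chosen with earlier results of these data known. At 3 hr 2 of 21 tested ADAMTS and ADAM proteases were called, both higher, against 5.07% of all tested genes called higher, and the list's median log2 difference was 0.09. Adamts9, another matrix-cleaving ADAMTS protease, had 38, 36.7 and 34.9 CPM in the 3 hr controls and 52.8, 49.6 and 63.2 CPM after LTP, with no overlap and a log2 fold change of 0.61 (SE 0.0947, adjusted p of 0.0137 in edgeR). Its call held in 15 of 15 alternatives. Adam19, a membrane-bound protease, had 9.69, 10.6 and 10.7 CPM against 12.6, 12 and 15.1 CPM (0.37, SE 0.103, adjusted p of 0.0875 in edgeR), with its call lost in 6 of 15 alternatives, among them without any of 3 hr control replicates 1, 2 and 3 or 3 hr LTP replicates 1 and 3 (0.26 to 0.40).

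Of 13 tested matrix metalloproteases 2 were called at 3 hr, both lower, against 1.53% of all tested genes called lower, and the list's median was -0.10. Mmp3 (stromelysin 1) had 0.865, 1.37 and 1.28 CPM in the 3 hr controls and 0.341, 0.308 and 0.396 CPM after LTP, from 40, 63 and 66 counts and from 15, 14 and 15 counts. The groups lay far apart, with a log2 fold change of -1.74 (SE 0.262) and an adjusted p of 0.0121 in edgeR, and the call held in 15 of 15 alternatives. In the 1 hr libraries Mmp3 had at most 5 counts. Mmp13, a collagenase, had 0.974, 1.37 and 1.44 CPM in the 3 hr controls and 0.5, 0.616 and 0.66 CPM after LTP. These did not overlap (-1.08, SE 0.229, adjusted p of 0.04 in edgeR), and the call was lost without 3 hr control replicate 2 (adjusted p of 0.186), 3 hr control replicate 3 (0.141) or 3 hr LTP replicate 1 (0.159). With a library left out the log2 fold change of Mmp13 ran from -1.24 to -0.97. At 1 hr Mmp21 had 0 counts in both fitted controls, 5 in the set-aside control and 10, 12 and 8 after LTP. It passed the filter on low counts only through the LTP group, so no fold or call is given for it. Of the 12 other metalloproteases tested at 1 hr 0 were called in edgeR and 0 had an unadjusted p under 0.05, which 1190 of 17736 tested genes had.

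Among the metalloprotease inhibitors 1 of 7 was called at 3 hr, lower, against the same 1.53%. A2m, which encodes the broad protease trap alpha-2-macroglobulin, had 14.5, 18.1 and 14.8 CPM in the 3 hr controls and 11.2, 10.6 and 10.0 CPM after LTP. All LTP libraries were lower (-0.56, SE 0.103, adjusted p of 0.0251 in edgeR), and without 3 hr control replicate 2 the call was lost (-0.46, adjusted p of 0.109). The fibroblast or meninges markers also had lower values at 3 hr (median -0.58), and their part in the differences of Mmp3, Mmp13 and A2m was not tested. Of the plasminogen system list 1 of 19 was called at 3 hr, also lower and beside 1.53% of all genes, namely Eno1 (-0.34, SE 0.0838, adjusted p of 0.0617 in edgeR), a glycolytic enzyme that also binds plasminogen, which has near-identical copies and is uncertain for that reason. It had 581, 586 and 549 CPM in the 3 hr controls and 418, 418 and 506 CPM after LTP. Its call was lost in 5 of 15 alternatives, among them without any of 3 hr control replicates 1, 2 and 3 or 3 hr LTP replicate 1 (-0.36 to -0.30). At 1 hr the plasminogen, ADAMTS and inhibitor lists had 0 called genes in edgeR and 0 with an unadjusted p under 0.05, which 1190 of 17736 tested genes had.

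Of 18 protease substrates 1 was called at 1 hr and 2 at 3 hr, all higher, against 0.778% and 5.07% of all tested genes called higher. Thbs1, a matrix glycoprotein cleaved by ADAMTS1, had 15.1 and 16.3 CPM in the fitted 1 hr controls, 18.7 CPM in the set-aside control and 33.9, 33.8 and 30.1 CPM in the 1 hr LTP libraries. At 3 hr it had 41.9, 34.2 and 23.3 CPM in the controls and 122, 108 and 114 CPM after LTP. The groups did not overlap at either time, with log2 fold changes of 1.06 (SE 0.0941) and 1.80 (SE 0.176). Tnr, which encodes the perineuronal net protein tenascin-R, had 109, 103 and 109 CPM in the 3 hr controls and 150.2, 135 and 152 CPM after LTP (0.46, SE 0.0662, adjusted p of 0.00974 in edgeR). Both calls held in 15 of 15 alternatives.

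The same lists were counted between the controls. At 3 hr 7 of 19 tested plasminogen system genes were called higher and 3 lower (median log2 0.24), 4 of 12 matrix metalloproteases higher and 1 lower (0.29), 4 of 21 ADAMTS and ADAM proteases higher and 0 lower (-0.01), 2 of 7 metalloprotease inhibitors higher and 1 lower (-0.05), and 7 of 18 substrates higher and 2 lower (0.17). Each count stands beside 16.1% of all tested genes called higher and 16.8% called lower. Mmp3, Mmp10 and Mmp21 had at most 3 counts over the fitted 1 hr controls and are left out of the metalloprotease count and median, and no fold is given for them.

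**Figure D4:**
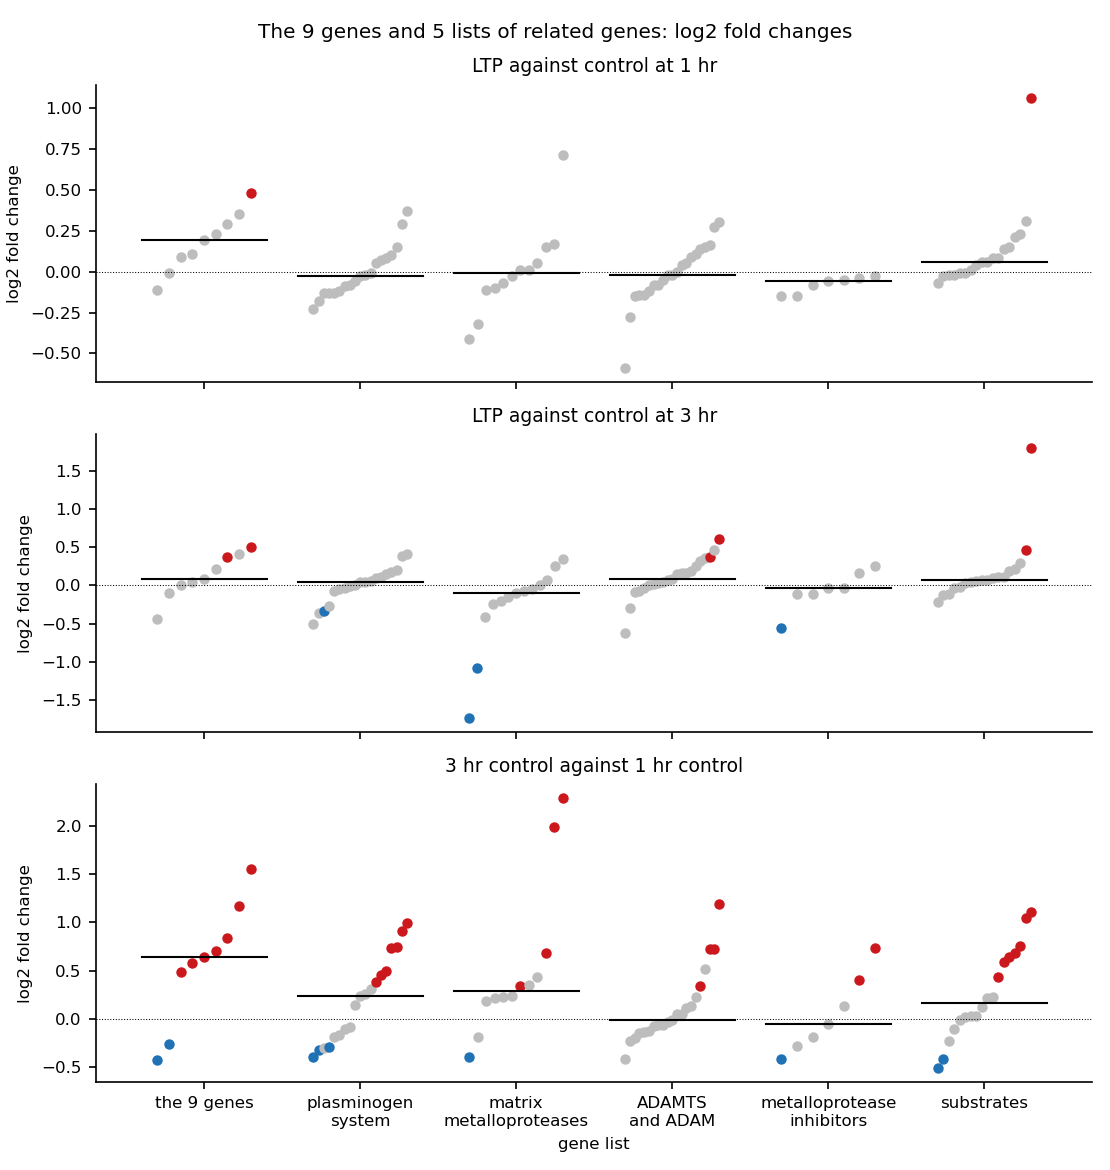
Log2 fold change of the tested genes in the 9-gene set and 5 lists for LTP against control at 1 hr, at 3 hr and for 3 hr against 1 hr controls, with red for calls higher, blue for calls lower, grey for no call and a black line at the median of the points. Genes with at most 3 counts over a compared group are left out, and the 2 lowest metalloproteases at 3 hr are Mmp3 at -1.74 and Mmp13 at -1.08.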

How the data were processed

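The 12 libraries of 4 groups were stranded total RNA libraries depleted of ribosomal RNA. The deposited values are raw counts per gene, not normalized, in 2 tables, 1 per time point. Per the study's methods and the labels, the authors aligned reads with STAR to GRCm38/mm10 and counted them with R Bioconductor packages. Strand use in counting was not given in the sources used here, and neither was the treatment of multiply aligned reads, which affects overlapping and duplicated genes. DESeq2 is also named in the submitters' processing notes. Of 41091 gene IDs, 40217 matched GENCODE M21 without version numbers and 874 did not. Unmatched IDs stayed in the tests.

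Tests were made with edgeR 4.0.16 in R 4.3.3 (quasi-likelihood F test) with filterByExpr, TMM factors and Benjamini-Hochberg adjustment over all genes tested. Calls required an adjusted p below 0.1 together with a fold change above 1.2, with no fold minimum for the difference of LTP effects. The 1 hr fit used 5 libraries, the 3 hr fit 6, and the control and difference comparisons 11 in 1 fit of 4 groups. All 9 members passed the filter on low counts in each fit. SE is the log2 fold change divided by the square root of F. P-values measure the spread between animals of a group. On simulated counts the fits returned the fold changes put in, and recovered fewer changed genes for the difference of LTP effects, which fell short of the criterion first set, and the criterion was lowered after this was seen.

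Libraries with the same number at a time point come from the same animal, as the labels state. The correlation of their deviations from the group means, across genes, was -0.0149, -0.156 and 0.075 at 1 hr and 0.0385, -0.0275 and 0.218 at 3 hr. Replicates were distinct libraries, since chi-square divided by its degrees of freedom was 9.49 or more for every pair of replicates (genes with 20 or more counts in the pair). The highest value was 85.6, for 3 hr LTP replicates 2 and 3, and replicates 1 and 3 of that group had 44. The set-aside 1 hr control had 47 with replicate 1 and 63.3 with replicate 3.

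The 9 genes and the lists were chosen with earlier results of these data known. Named were the 9 genes, Arc, Fos, Hprt and Homer1, list genes called after LTP, and for each of the 9 called after LTP the 3 genes most correlated with it. Other genes named (cell type markers, Mmp10) were added beside results they touch. The alternatives were DESeq2 1.42.0, limma-voom (limma 3.58.1), other scalings and filters, inclusion of the set-aside control, an animal block (which includes the set-aside control), a 4-group fit, an adjusted p under 0.05 and leaving out each library.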

Additional observations from a re-analysis of the deposited data

How the results depend on the processing

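At 1 hr, 1 of the 9 genes was called under all 15 alternatives. Over all genes, the count of 140 was 347 with no filter beyond 1 count and ran from 69 to 344 with a library left out. At 3 hr, 2 of the 9 were called, 3 with the animal as a replicate block, and 0 to 2 with a library left out. The count over all genes was 1155, 618 at an adjusted p under 0.05, 1662 with the block and 228 to 2170 with a library left out, lowest without 3 hr control replicate 2 and highest without 3 hr LTP replicate 2. For the controls 7 to 9 of the 9 were called. For the difference of LTP effects the count of 11 was 80 with DESeq2, 102 with no filter, 7 with the block and 1 to 67 with a library left out, with 0 of the 9 in every case. Apart from Plau at 3 hr, and Mmp9 and Timp3 between the controls, the block setting changed no call of the 9. That setting also includes the set-aside control, and Mmp9 lost its call between the controls with this inclusion alone.

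The differences that changed sign were not called in the comparison in which they changed. At 1 hr, with the set-aside control included, Plaur was at -0.14, Timp3 at 0.05 and Mmp9 at -0.00. With the block Plaur was at -0.11 and Timp3 at 0.05. With a library left out Plaur ran from -0.00 to 0.23 and Timp3 from -0.11 to 0.09. At 3 hr Timp3 was at -0.01 both with total counts and with no filter, and with a library left out it ran from -0.04 to 0.05, Plaur from -0.04 to 0.12, Serpini1 from -0.18 to 0.03 and Timp1 from -0.02 to 0.23. For the difference of LTP effects, Serpini1 and Timp3 were each at -0.00 with total counts and at -0.01 with at least 10 counts in every library. With the set-aside control included, Plaur was at 0.19, Serpini1 at -0.08 and Timp3 at -0.05, and with the block they were at 0.15, -0.10 and -0.05. With a library left out, Plau ran from -0.06 to 0.26, Plaur from -0.20 to 0.04, Serpini1 from -0.12 to 0.14, Timp1 from -0.29 to 0.03 and Timp3 from -0.11 to 0.09. The cause of these shifts was not tested. Where a library was left out of a 1 hr control pair, the remaining control was assumed to vary like the other groups. Mmp9, Mmp3, Mmp10, Mmp13 and Mmp21 were measured from few counts.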

Other observations

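The level of a protease relative to an inhibitor, within a library and per kilobase of exon, differed between 1 hr and 3 hr libraries. Time and animal cannot be told apart in this difference. Plat to Serpini1 was 0.276 and 0.215 in the fitted 1 hr controls and 0.343 in the set-aside control, and 0.304, 0.28 and 0.256 after LTP at 1 hr. At 3 hr it was 0.411, 0.483 and 0.498 in the controls and 0.493, 0.581 and 0.697 after LTP, so the 3 hr groups overlapped at 1 value. Within each animal at 3 hr this ratio was higher after LTP. At 1 hr it was higher in animals 1 and 3 and lower in animal 2, whose control was the set-aside one. Adamts1 to Timp3 was 2.5 and 2.96 in the fitted 1 hr controls, 3.61 in the set-aside control and 3.63 to 3.9 after LTP, and at 3 hr it was 4.49 to 5.13 in the controls and 6.11 to 6.65 after LTP. Adamts4 to Timp3 was 0.661 and 0.611 in the fitted 1 hr controls, 0.813 in the set-aside control and 0.722 to 0.74 after LTP, so the set-aside control lay above the LTP range. It was 1.56 to 1.99 in the 3 hr controls and 2.36 to 2.56 after LTP. These ratios combine values already tested and were given no test, they concern RNA and not protein, and those with Timp3 carry the uncertainty of its overlap with Syn3.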
